A study of Mus musculus with 54 samples.

Results

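Bulk RNA-seq libraries of microglia (MG), the macrophages of the brain parenchyma, were compared between mice injected with lipopolysaccharide (LPS) and mice injected with PBS, all of which had rebuilt their MG after depletion. The libraries were chosen by their labels, as MG libraries of the genotype Ccr2CreERT2/CreERT2:R26tdT/tdT, and numbered 6 of the 54 in the series. LPS mice 1, 5 and 7 carried the treatment label BLZ945+LPS and PBS mice 174, 175 and 177 the label BLZ945+PBS, so that each group held 3 mice and each library came from 1 mouse. Both alleles are homozygous in all 6 mice: a tamoxifen-inducible Cre recombinase at the Ccr2 locus and, at Rosa26, the fluorescent protein tdTomato that Cre switches on. All 6 mice had received BLZ945 and then 2 mg tamoxifen on days 0, 2 and 4, LPS or PBS was injected 8 weeks after the end of treatment and MG were harvested 12 h later, and all 6 libraries shared batch label 2. The Ccr2 promoter is active in monocytes, which leaves MG largely outside the labelled lineage, and MG were not divided by tdTomato. The question was which genes MG change in endotoxaemia once they have repopulated the brain. Reporter mice that were never depleted are not analysed here, so these 6 libraries hold no contrast of repopulated with original MG.

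MG and other brain macrophages need signalling through the CSF1 receptor to survive, and BLZ945, an inhibitor of that receptor that enters the brain, removes them until it is withdrawn, after which MG are replaced mainly by division of the cells that remain. LPS, a cell wall component of Gram-negative bacteria, is handed by CD14 to the complex of Toll-like receptor 4 (TLR4) and MD-2, from which adaptor proteins lead to nuclear factor κB (NF-κB), to MAP kinases and, through interferon-β, to interferon-stimulated genes. Activated MG secrete cytokines and chemokines and are known to reduce the genes by which resting MG are recognised, such as P2ry12. Systemic LPS also raises circulating glucocorticoids, which act on many cells of the brain.

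Library totals lay between 7814144 and 10623650 counts, and 8482 genes in PBS mouse 175 to 11307 genes in LPS mouse 7 had at least 10 counts. PBS mouse 175 stood furthest apart. The Spearman correlation of PBS mouse 175 with the other libraries was 0.39 to 0.64, against 0.95 between LPS mice 5 and 7 and 0.86 between PBS mice 174 and 177. LPS mouse 1 was also apart from its group, at 0.76 and 0.72 with LPS mice 5 and 7. PBS mouse 175 was nearer to LPS mouse 1 (0.64) than to PBS mice 174 and 177 (0.60 and 0.58). Levels in PBS mouse 175 also followed the GC content of genes, with a median deviation from the mean of the 6 libraries of -1.82 on the log2 scale in the bin of genes with a median GC content of 39.6% and 1.08 in the bin at 58.95%. LPS mice 5 and 7 tilted the other way, from 0.75 and 0.80 to -0.63 and -0.60, and LPS mouse 1 ran from -0.10 to 0.49, so that the tilt also separated mice of the LPS group. Results are given with and without PBS mouse 175, which had been singled out beforehand for its unusually low P2ry12. MG markers were abundant in all 6 libraries, with a summed level of 8 markers of 13144 to 18777 CPM after LPS and 43621 to 54027 CPM after PBS, where CPM is a count scaled by its library's total. Monocyte markers summed to 7.05 to 11 and 3.44 to 11.3 CPM, and markers of subdural CNS-associated macrophages (sdCAMs), nearly all of them Stab1 with Lyve1 at 0 throughout, to 453 to 687 and 201 to 516 CPM. Among monocyte markers, Ccr2 lay at 1.67, 2.56 and 2.87 CPM in LPS mice 1, 5 and 7 and at 3.19 to 6.9 CPM after PBS. In the same LPS mice Plac8 lay at 2.39, 2.11 and 0.745 CPM, Treml4 at 2.51, 1.45 and 0.639 CPM and Vcan at 0, 2 and 5.86 CPM. After PBS, Plac8 reached 0.858 CPM, Treml4 and Vcan lay at 0, and Ace reached 4.41 CPM, against 0.478 CPM after LPS. The part of monocyte RNA in the results was not tested. Ttr of the choroid plexus reached 232 CPM in LPS mouse 1 and 7.24 to 57.6 CPM elsewhere.

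A gene was called when its edgeR adjusted p was under 0.05 and its log2 fold change over 1 in size. Levels below are the same TMM-scaled CPM and always follow the order LPS mice 1, 5 and 7, then PBS mice 174, 175 and 177. Of 10882 genes tested, 72 were called higher after LPS (0.662%) and 46 lower (0.423%), and the median log2 fold change over all genes was 0.03. Groups did not overlap for 1512 genes that were higher (13.9%) and 1225 that were lower (11.3%). With PBS mouse 175 left out, calls rose to 228 higher (1.98% of 11506 genes) and 175 lower (1.52%) and included all 118 of the 6 libraries. The other fits that left out 1 mouse called fewer genes, namely 0 without LPS mouse 1 (where 1877 genes had an unadjusted p under 0.05), 1 without LPS mouse 5, 10 without LPS mouse 7, 28 without PBS mouse 174 and 24 without PBS mouse 177. No call was therefore made in every one of the 6 fits, while 20 of the 118 were made in each fit without a PBS mouse. DESeq2 called 854 genes in the 6 libraries, 450 higher (4.14%) and 404 lower (3.71%). When trends of each library on GC content and transcript length were removed, a step chosen after seeing the data, 157 of 10497 genes were higher (1.5%) and 232 lower (2.21%), and the all-gene median moved from 0.03 to -0.20. With that correction and without PBS mouse 175, 462 of 11082 genes were called higher (4.17%) and 495 lower (4.47%), with a median of -0.03. Of 116 genes named below and followed under each setting, 58 were called in the 6 libraries and 58 were not. Of the latter, DESeq2 called 48, and edgeR called 49 without PBS mouse 175, 33 with the GC and length correction and 33 in the fit of all 18 reporter libraries.

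The 12 higher calls with the smallest p, at least 10 CPM in LPS mice and no overlap between groups included receptors and secreted proteins, and 9 of them were at or near 0 in PBS mice. They were chosen by p and not by the size of the change. Spp1, which encodes the secreted phosphoprotein osteopontin, lay at 829.9, 1027 and 628 CPM after LPS and 0.191, 0 and 0 CPM after PBS. All LPS libraries lay above all PBS libraries, which the rule required, and against the floor of 3 counts per PBS library Spp1 was higher by at least 2466-fold (edgeR, adjusted p = 0.00609). Il1r2 encodes a decoy receptor that binds interleukin-1 without signalling and was measured at 1145, 589.5 and 546 CPM after LPS and 0, 0 and 0 CPM after PBS. It was higher by at least 2263-fold (edgeR, adjusted p = 0.00609) and was highest in LPS mouse 1. Marco, a scavenger receptor of macrophages for bacteria, lay at 370.5, 229.7 and 207 CPM after LPS and 0, 0 and 0 CPM after PBS, higher by at least 802-fold (edgeR, adjusted p = 0.00609). Lcn2 encodes lipocalin 2, which withholds bacterial iron carriers. Its level was 260.1, 235 and 181 CPM after LPS and 0, 0 and 0 CPM after PBS, higher by at least 671-fold (edgeR, adjusted p = 0.00609). Cp, the copper ferroxidase ceruloplasmin, lay at 86.2, 198 and 180.2 CPM after LPS and 0, 0 and 0.113 CPM after PBS, higher by at least 461-fold (edgeR, adjusted p = 0.00609), with LPS mouse 1 below the other LPS mice.

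Trem1, a receptor that amplifies Toll-like receptor signals, and Fpr1, which senses formylated bacterial peptides, are known from myeloid cells of the blood. Trem1 lay at 144, 152 and 165 CPM after LPS and 0, 0 and 0 CPM after PBS, higher by at least 458-fold (edgeR, adjusted p = 0.00609). For Fpr1 the levels were 175, 169 and 125 CPM after LPS and 0.0953, 0 and 0.339 CPM after PBS, higher by at least 465-fold (edgeR, adjusted p = 0.00609). Neither gene overlapped between groups, which the rule required. Lcn2, Il1r2, Trem1 and Fpr1 are also expressed by neutrophils, whose 10 markers summed to 10.2 to 17.1 CPM after LPS and 0 to 1.72 CPM after PBS. S100a8 was the highest marker, at 7.03 to 10.03 CPM in LPS mice. Cxcr2 lay at 0, 3.23 and 5.86 CPM and Mmp8 at 0, 2.34 and 1.6 CPM after LPS, Ngp reached 2.02 CPM in LPS mouse 7 alone, and in PBS mice these 3 lay at 0 except for Mmp8 at 0.128 CPM in mouse 175. S100a9, Ly6g, Retnlg and Elane were at 0 in all 6 libraries. The part of neutrophil RNA in these 4 genes was not tested. Plet1, which encodes a membrane-anchored surface protein, lay at 177, 141 and 129 CPM after LPS and 0, 0 and 0 CPM after PBS, higher by at least 444-fold (edgeR, adjusted p = 0.00609). Adamtsl4 encodes a secreted protein of the extracellular matrix and lay at 200.5, 116 and 152 CPM after LPS and 0, 0 and 0 CPM after PBS, higher by at least 464-fold (edgeR, adjusted p = 0.00679).

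AW112010, a short transcript induced in activated myeloid and lymphoid cells, and the tetraspanning membrane genes Ms4a6c and Ms4a6d already had a measurable level after PBS. AW112010 lay at 867, 758 and 542 CPM after LPS and 21.7, 18.9 and 20.5 CPM after PBS (log2 fold change 5.15 with an SE of 0.377, edgeR adjusted p = 0.00609). Ms4a6c lay at 1391, 1098 and 997 CPM after LPS and 50.4, 29.2 and 42.9 CPM after PBS (log2 fold change 4.83 with an SE of 0.396, edgeR adjusted p = 0.00609). Ms4a6d lay at 3574, 3467 and 2920 CPM after LPS and 221, 201 and 247 CPM after PBS (log2 fold change 3.90 with an SE of 0.329, edgeR adjusted p = 0.00609). PBS mouse 175 was near the other PBS mice for all 3 genes. With the GC and length correction the log2 fold changes were smaller, 3.77 for AW112010, 4.00 for Ms4a6c and 2.99 for Ms4a6d, and all 3 were still called. Members of the Ms4a6 group are similar in sequence and may share reads. Over the 24 genes described here and below, the highest adjusted p in any fit without 1 mouse was 0.0529 to 0.237, and all 24 were called without PBS mouse 175.

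**Figure D1:**
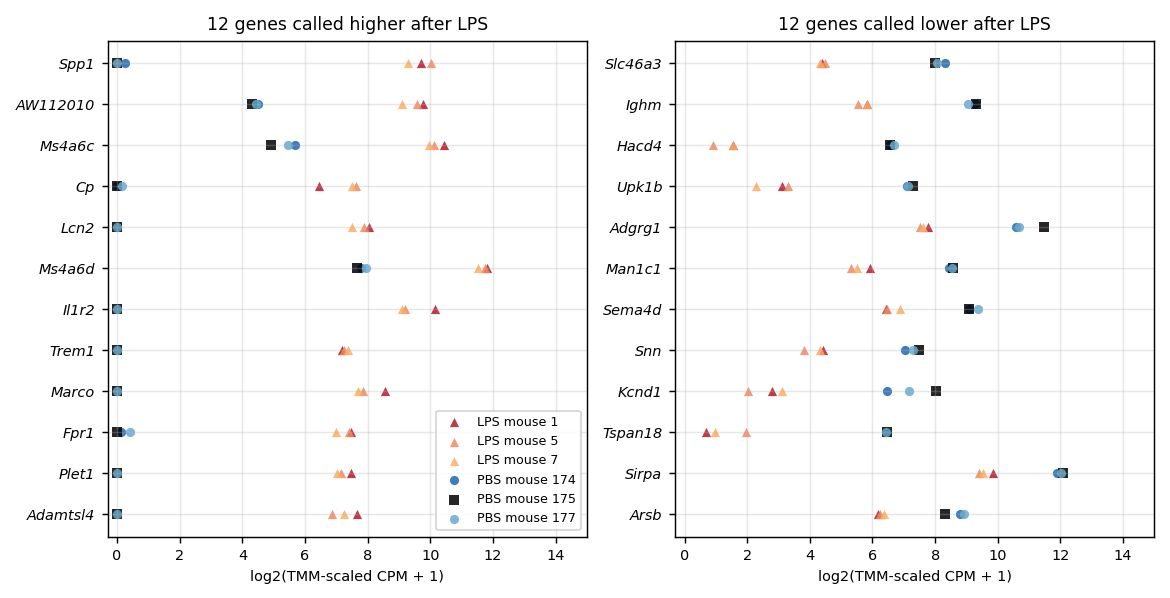
Levels of the 12 higher (left) and 12 lower (right) calls named by rule, as log2(TMM-scaled CPM + 1), 1 point per library. Triangles are LPS mice, circles and the black square PBS mice, and the groups do not overlap for any of the 24 genes, which the rule required.

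Promoters of the called genes were searched for short motifs that NF-κB and interferon-regulated factors are known to bind. RefSeq sequences (GRCm38.p6) of the 250 bases upstream of the start were matched for 62 of the 72 higher and 35 of the 46 lower calls. GGGANNTTC, a κB-type motif searched on both strands, stood in 6 of 62 higher (9.68%) and 5 of 35 lower calls (14.3%), against 3.64% of 8615 tested genes and 3.23% of all 32851 promoters. GAAANNGAA, a core of the interferon-stimulated response element, stood in 17 of 62 higher (27.4%) and 1 of 35 lower calls (2.86%), against 7.63% and 7.13%. TTCNNNGAA, the palindrome of STAT factors, stood in 4 of 62 higher (6.45%) and 4 of 35 lower calls (11.4%), against 7.13% and 7.02%. For the calls without PBS mouse 175, GAAANNGAA stood in 26 of 177 higher (14.7%) and 9 of 136 lower calls (6.62%). The κB-type motif then stood in 7.91% and 9.56%, and TTCNNNGAA in 9.04% and 5.15%. The 17 higher calls with GAAANNGAA include members of the same gene families, Ms4a6b with Ms4a6c and Pilra with Pilrb1 and Pilrb2. GAAANNGAA and TTCNNNGAA can overlap each other. These shares are descriptions of letters in a window and say nothing about binding. Below are the windows of Nfkbia (chr12:55492648-55492897, minus strand) and Cxcl2 (chr5:90903649-90903898, plus strand) with κB-type matches in capitals, and of Ms4a6c (chr19:11469118-11469367, plus strand) and Saa3 (chr7:46715677-46715926, minus strand) with matches to GAAANNGAA in capitals. They show where the motifs lie in genes whose levels are given here, each 5′ to 3′ and ending at the base before the start. Cxcl2 holds a pair of overlapping matches.
Nfkbia: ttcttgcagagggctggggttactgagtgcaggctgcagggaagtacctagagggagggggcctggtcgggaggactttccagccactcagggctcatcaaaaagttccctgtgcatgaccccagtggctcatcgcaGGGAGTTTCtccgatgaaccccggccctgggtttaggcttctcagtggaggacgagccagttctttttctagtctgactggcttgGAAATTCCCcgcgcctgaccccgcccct
Cxcl2: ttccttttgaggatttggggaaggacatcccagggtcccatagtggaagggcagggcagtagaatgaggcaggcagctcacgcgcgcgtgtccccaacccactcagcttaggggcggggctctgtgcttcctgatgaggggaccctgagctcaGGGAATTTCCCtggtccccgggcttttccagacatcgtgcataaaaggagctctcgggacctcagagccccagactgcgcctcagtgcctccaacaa
Ms4a6c: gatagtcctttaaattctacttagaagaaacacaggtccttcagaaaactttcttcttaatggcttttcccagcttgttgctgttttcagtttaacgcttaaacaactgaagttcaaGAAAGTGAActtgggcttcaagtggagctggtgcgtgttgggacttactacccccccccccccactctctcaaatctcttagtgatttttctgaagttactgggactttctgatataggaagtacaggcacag
Saa3: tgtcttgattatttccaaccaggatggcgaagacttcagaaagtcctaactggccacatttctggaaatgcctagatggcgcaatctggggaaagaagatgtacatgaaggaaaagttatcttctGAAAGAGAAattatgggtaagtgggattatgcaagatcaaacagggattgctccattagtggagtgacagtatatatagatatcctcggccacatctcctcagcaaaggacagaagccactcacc

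The 12 lower calls chosen by the same rule encoded membrane proteins, enzymes, an immunoglobulin chain and an ion channel. Slc46a3, a transporter of the lysosomal membrane, lay at 19.8, 21.4 and 18.9 CPM after LPS and 320.5, 252 and 265 CPM after PBS (log2 fold change -3.80 with an SE of 0.349, edgeR adjusted p = 0.00609). Adgrg1, an adhesion G protein-coupled receptor typical of resting MG, lay at 220, 181 and 196 CPM after LPS and 1548, 2863 and 1624 CPM after PBS (log2 fold change -3.34 with an SE of 0.387, edgeR adjusted p = 0.0154). Sirpa, the inhibitory receptor for CD47, lay at 928, 680.4 and 737 CPM after LPS and 3826, 4305 and 4154 CPM after PBS (log2 fold change -2.39 with an SE of 0.317, edgeR adjusted p = 0.0244). In each of these genes every LPS library lay under every PBS library, which the rule required. Arsb, a lysosomal sulfatase, lay at 72, 75 and 81.5 CPM after LPS and 447, 318 and 483 CPM after PBS (log2 fold change -2.45 with an SE of 0.333, edgeR adjusted p = 0.0268). Hacd4, an enzyme of fatty acid elongation, fell to near 0, with 1.91, 0.89 and 1.92 CPM after LPS and 93.1, 92.8 and 101 CPM after PBS (log2 fold change -5.92 with an SE of 0.573, edgeR adjusted p = 0.00753). Tspan18, a tetraspanin, lay at 0.597, 2.89 and 0.958 CPM after LPS and 84.5, 87.1 and 85.9 CPM after PBS (log2 fold change -5.84 with an SE of 0.763, edgeR adjusted p = 0.0237). Hacd4 and Tspan18 varied little among PBS mice, mouse 175 included. The log2 fold change of Hacd4 was -7.02 with the GC and length correction, and that of Tspan18 was -6.75 without LPS mouse 5. Adgrg1 was not called in the fit of all 18 reporter libraries (edgeR adjusted p = 0.0849).

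Ighm, the constant region of the immunoglobulin μ heavy chain, lay at 55.6, 45 and 55.2 CPM after LPS and 619, 628 and 532 CPM after PBS (log2 fold change -3.51 with an SE of 0.324, edgeR adjusted p = 0.00609). The B cell marker Ms4a1 was at 0 in all 6 libraries, and Cd79b, the leading lymphocyte marker, lay at 29, 19 and 14.1 CPM after LPS and 34.1, 2.04 and 37.1 CPM after PBS. Upk1b, another tetraspanin, lay at 7.64, 8.9 and 3.83 CPM after LPS and 136, 157 and 139 CPM after PBS (log2 fold change -4.40 with an SE of 0.499, edgeR adjusted p = 0.0154). Man1c1, a mannosidase of the Golgi, lay at 59.4, 39 and 44.3 CPM after LPS and 349, 377 and 370.3 CPM after PBS (log2 fold change -2.94 with an SE of 0.343, edgeR adjusted p = 0.0154). Sema4d, a transmembrane semaphorin, lay at 85.5, 87.3 and 116 CPM after LPS and 536, 544 and 654 CPM after PBS (log2 fold change -2.58 with an SE of 0.324, edgeR adjusted p = 0.0212). Ighm, Upk1b, Man1c1 and Sema4d were lower in each LPS mouse than in each PBS mouse, which the rule required. Kcnd1, a voltage-gated potassium channel, lay at 5.97, 3.12 and 7.56 CPM after LPS and 87.9, 262 and 143 CPM after PBS (log2 fold change -4.88 with an SE of 0.637, edgeR adjusted p = 0.0237), and Snn at 20.2, 13.1 and 19.1 CPM after LPS and 131, 176 and 157 CPM after PBS (log2 fold change -3.15 with an SE of 0.405, edgeR adjusted p = 0.0231). For Kcnd1 PBS mouse 175 was the highest PBS library. Upk1b was not called in the fit of all 18 reporter libraries (edgeR adjusted p = 0.104).

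Homeostatic genes, by which resting MG are recognised, had negative fold changes after LPS, and how many of them were called depended on PBS mouse 175 and on the method. Of 30 tested, edgeR called 4 lower in the 6 libraries (0.423% of all genes) and 12 without PBS mouse 175 (1.52%). With all 6 mice kept, DESeq2 called 17 lower (3.71%) and edgeR with the GC and length correction 19 (2.21%). P2ry12, the ADP receptor by which MG processes move towards injury, lay at 439.6, 1104 and 1026 CPM after LPS and 9010, 975 and 11175 CPM after PBS. PBS mouse 175 lay within the range of the LPS mice, far under the other PBS mice, so that the groups overlapped. Because that mouse was singled out for its low P2ry12, the fit without it is no independent test of this gene. P2ry12 did not pass in the 6 libraries (log2 fold change -3.04 with an SE of 0.864, edgeR adjusted p = 0.14) and passed without PBS mouse 175 (log2 fold change -3.56, edgeR adjusted p = 0.00572 without PBS mouse 175, up to 0.424 with another mouse left out). With that mouse kept it passed with DESeq2 (adjusted p = 0.00617), voom (0.00177), the GC and length correction (0.00355), edgeR with no filter on low counts (0.0407) and the fit of all 18 reporter libraries (0.038). Gpr34, a lysophospholipid receptor, was also low in PBS mouse 175, with 130.4, 244 and 277 CPM after LPS and 3895, 223 and 3946 CPM after PBS. It did not pass in the 6 libraries (edgeR adjusted p = 0.124) and passed without that mouse (log2 fold change -4.18, edgeR adjusted p = 0.00202 without PBS mouse 175, up to 0.423 with another mouse left out). As Gpr34 was low in the same library as P2ry12, the fit without that mouse is no independent test of Gpr34 either. With all mice it passed with DESeq2 (adjusted p = 0.00148), voom (0.00149), the GC and length correction (0.00529), edgeR with no filter on low counts (0.0268) and the fit of all 18 reporter libraries (0.0196). PBS mouse 175 was not low in all MG genes. Tmem119, a surface marker of MG, was highest in that library, with 4039, 951 and 989 CPM after LPS and 5906, 15078 and 6850 CPM after PBS (log2 fold change -2.22 with an SE of 0.708, edgeR adjusted p = 0.195). Its fold change without that mouse, -1.68 on the log2 scale, did not pass either (edgeR adjusted p = 0.178, 0.0963 to 0.62 over the 6 fits without 1 mouse), and without LPS mouse 1, the highest LPS library, the fold change was -3.12. Tmem119 passed in the 6 libraries with DESeq2 (adjusted p = 0.0214), voom (0.00173) and the GC and length correction (0.0168), and without LPS mouse 1 and PBS mouse 175 together (0.00128). Csf1r, the receptor that BLZ945 inhibits, was also highest in PBS mouse 175, with 4391, 4743 and 5683 CPM after LPS and 11481, 23594 and 14034 CPM after PBS. It did not pass in the 6 libraries (edgeR adjusted p = 0.0956) and passed without that mouse (log2 fold change -1.37, edgeR adjusted p = 0.0343 without PBS mouse 175, up to 0.433 with another mouse left out). With all mice it passed with DESeq2 (adjusted p = 0.00168), voom (0.00275), the GC and length correction (0.0342), edgeR with no filter on low counts (0.0456) and the fit of all 18 reporter libraries (0.0157). The GC content of the longest transcript was 38.6% for P2ry12, 37.1% for Gpr34, 59.1% for Tmem119 and 54.5% for Csf1r. Whether GC content had a part in the levels of these genes in PBS mouse 175 was not tested. In bulk RNA, fewer cells of a type and less RNA per cell cannot be told apart.

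**Figure D2:**
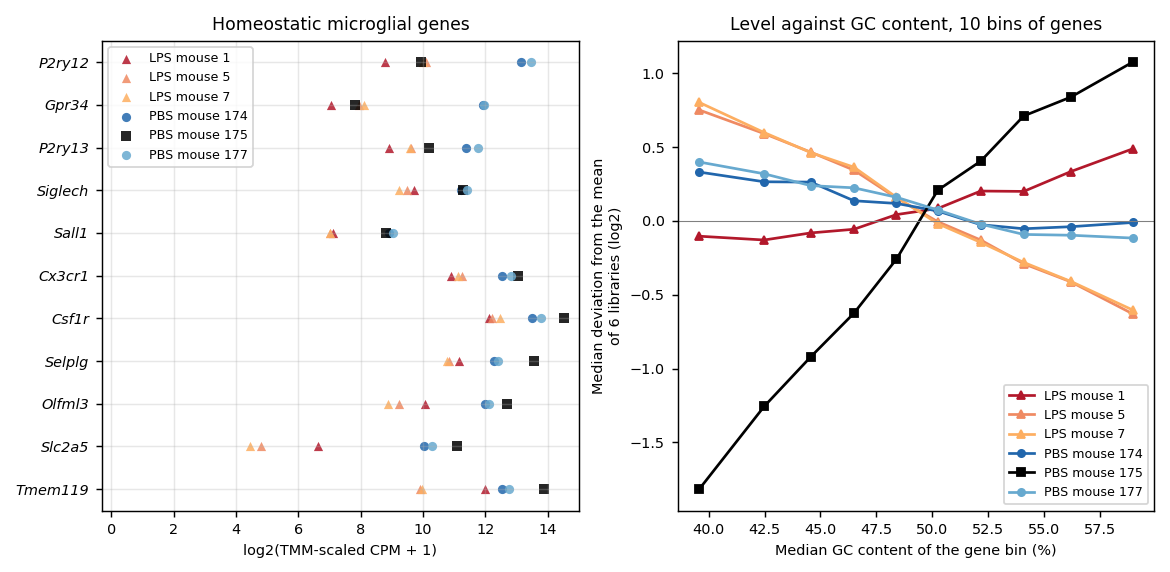
Left, levels of 11 homeostatic MG genes as log2(TMM-scaled CPM + 1), 1 point per library. Right, median deviation of each library from the mean of the 6 libraries (log2) against the median GC content of 10 bins of genes, where PBS mouse 175 runs from -1.82 at 39.6% to 1.08 at 58.95%. P2ry12 and Gpr34 of PBS mouse 175 lie among the LPS mice, while its Tmem119, Csf1r and Selplg lie above every other library.

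The homeostatic list held 30 tested genes, all with a negative log2 fold change in the 6 libraries (median -1.73, against 0.03 over all genes). The groups did not overlap for 21 of them, all lower after LPS, against 11.3% of all genes. The 4 lower calls are described first. Slc2a5, a fructose transporter of MG, lay at 98.3, 26.6 and 21 CPM after LPS and 1053, 2168 and 1241 CPM after PBS (log2 fold change -4.94 with an SE of 0.747, edgeR adjusted p = 0.0367). Olfml3, a secreted glycoprotein, lay at 1077, 601 and 471 CPM after LPS and 4100, 6664 and 4393 CPM after PBS (log2 fold change -2.82 with an SE of 0.45, edgeR adjusted p = 0.0402). Siglech, a sialic acid-binding lectin, lay at 833, 723 and 598 CPM after LPS and 2381, 2480 and 2747 CPM after PBS (log2 fold change -1.82 with an SE of 0.308, edgeR adjusted p = 0.0453). In these genes all LPS mice were under all PBS mice. Sall1, a transcription factor that maintains MG identity, lay at 137, 129 and 128 CPM after LPS and 481, 446 and 521 CPM after PBS (log2 fold change -1.88 with an SE of 0.294, edgeR adjusted p = 0.0385). Siglech, Sall1 and Olfml3 were not called in the fit of all 18 reporter libraries (edgeR adjusted p = 0.222, 0.26 and 0.066). The log2 fold change of Slc2a5 was -5.84 without LPS mouse 1, and that of Siglech -2.44 with the GC and length correction. The GC and length correction and the omission of PBS mouse 175 together gave 20 lower calls, against 4.47% of all genes. The 12 called without that mouse included Cx3cr1, the fractalkine receptor (log2 fold change -1.61, edgeR adjusted p = 0.0218 without PBS mouse 175, up to 0.396 with another mouse left out), and Selplg, a selectin ligand (log2 fold change -1.42, edgeR adjusted p = 0.0342 without PBS mouse 175, up to 0.42 with another mouse left out). P2ry13, Csf1r and Sting1 were also among them. Of the purinergic list of 9, edgeR called 0 in the 6 libraries (5 at an unadjusted p under 0.05 and 5 called by DESeq2). Without PBS mouse 175 it called 3 lower (1.52% of all genes), P2ry12, P2ry13 and Entpd1, the ectonucleotidase CD39 (log2 fold change -1.96, edgeR adjusted p = 0.0149 without PBS mouse 175, up to 0.347 with another mouse left out). Among 21 transcription factors of MG identity, 1 was called lower, Sall1, and 1 higher, Klf4, against 0.423% and 0.662% of all genes. Klf4, a zinc finger factor, lay at 87.3, 47.5 and 46.4 CPM after LPS and 0.953, 0 and 0.339 CPM after PBS (log2 fold change 7.04 with an SE of 1.19, edgeR adjusted p = 0.0449). Without PBS mouse 174 the fold change of Klf4 was 8.32. Among 13 genes of transforming growth factor β signalling edgeR called 0 (5 at an unadjusted p under 0.05 and 1 called by DESeq2), and Tgfbr2 was called lower without PBS mouse 175 (1.52% of all genes). Calls over these 4 lists, each gene once, numbered 5 in the 6 libraries, 0, 0 and 0 without LPS mice 1, 5 and 7, and 0, 16 and 0 without PBS mice 174, 175 and 177.

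Several secreted ligands of inflammation were called higher. Ccl3, a chemokine for monocytes and T cells, lay at 461, 607 and 384 CPM after LPS and 18.8, 8.8 and 6.44 CPM after PBS (log2 fold change 5.41 with an SE of 0.558, edgeR adjusted p = 0.0103). Cxcl2, a chemokine for neutrophils, was at 0 after PBS and lay at 55, 44.5 and 43.4 CPM after LPS and 0, 0 and 0 CPM after PBS, higher by at least 142-fold (edgeR, adjusted p = 0.0231). Cxcl13, which attracts B cells, lay at 29.9, 49.1 and 37.3 CPM after LPS and 0.477, 0.128 and 0 CPM after PBS (log2 fold change 7.44 with an SE of 1.24, edgeR adjusted p = 0.042). None of these overlapped between groups. With the GC and length correction the log2 fold change was 4.67 for Ccl3 and 6.65 for Cxcl13, and without PBS mouse 174 that of Cxcl13 was 9.00. Tnf, the cytokine tumour necrosis factor, lay at 132, 183 and 136 CPM after LPS and 0.762, 0 and 0 CPM after PBS (log2 fold change 9.02 with an SE of 1.25, edgeR adjusted p = 0.0296). Il12b, the p40 subunit shared by interleukins 12 and 23, lay at 20.2, 46.6 and 19.6 CPM after LPS and 0, 0 and 0 CPM after PBS, higher by at least 85.8-fold (edgeR, adjusted p = 0.0414). Il1b, encoding interleukin-1β, had 91.8, 91.8 and 59 CPM after LPS and 2.67, 0 and 3.5 CPM after PBS and did not pass with all mice (edgeR adjusted p = 0.0956). Il1b was at 0 in PBS mouse 175 and was called without it (log2 fold change 4.71, edgeR adjusted p = 0.00485 without PBS mouse 175, up to 0.404 with another mouse left out). The chemokine genes Ccl5 (log2 fold change 5.69, edgeR adjusted p = 0.00207 without PBS mouse 175, up to 0.297 with another mouse left out), Ccl2, Ccl4 and Ccl12, the interleukin-1 receptor antagonist Il1rn and the TNF family ligand Tnfsf9 were called higher in the same fit. Il10, the anti-inflammatory interleukin, was listed at 0 in all PBS mice and in all LPS mice but mouse 7 and was not tested.

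By list, 1 of 10 CC chemokines, 2 of 5 CXC chemokines and 2 of 16 cytokines tested were called higher, against 0.662% of all genes, and none was called lower (edgeR). Their median log2 fold changes were 2.78, 2.90 and 0.86. Leaving out PBS mouse 175 changed the higher calls to 6, 2 and 5, against 1.98% of all genes. Over the ligands together, 5 calls became 0, 0 and 0 without LPS mice 1, 5 and 7, and 2, 13 and 1 without PBS mice 174, 175 and 177. Ccl22, which attracts T helper and regulatory T cells, was counted among the CC chemokines called without PBS mouse 175, but in the 6 libraries it lay at 9.2, 5.68 and 5.43 CPM after LPS and 0, 22.2 and 0 CPM after PBS, with a log2 fold change of -0.13 (edgeR adjusted p = 0.994). Its only level in PBS mice came from mouse 175. Of 14 LPS response genes that the study had picked from these and other libraries of the series, 8 were called higher (0.662% of all genes) and 13 without PBS mouse 175 (1.98%). Their median was 7.51, or 6.93 with genes at the PBS floor set to their bound. As the study had picked them from these data, this is not independent evidence of their direction.

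Receptors for cytokines and for LPS did not move in 1 direction. Il18rap, the accessory chain of the interleukin-18 receptor, lay at 51.1, 46.5 and 54.4 CPM after LPS and 0.0953, 0 and 0 CPM after PBS, higher by at least 151-fold (edgeR, adjusted p = 0.0118). Il15ra, which presents interleukin-15, lay at 165, 272 and 268 CPM after LPS and 34.1, 21.9 and 9.95 CPM after PBS (log2 fold change 3.42 with an SE of 0.552, edgeR adjusted p = 0.0402). With Il1r2 they made up the 3 higher calls among 25 cytokine receptors (median -0.28), against 0.662% of all genes. A further 3 receptors were called lower once PBS mouse 175 was left out (1.52% of all genes): Il10ra, for interleukin-10 (log2 fold change -1.53, edgeR adjusted p = 0.0341 without PBS mouse 175, up to 0.404 with another mouse left out), Csf3r, for granulocyte colony-stimulating factor (log2 fold change -1.51, edgeR adjusted p = 0.0392 without PBS mouse 175, up to 0.38 with another mouse left out), and Tgfbr2 (log2 fold change -1.58, edgeR adjusted p = 0.0461 without PBS mouse 175, up to 0.557 with another mouse left out). Among 23 genes of LPS and Toll-like receptor sensing edgeR called 0 (6 at an unadjusted p under 0.05 and 5 called by DESeq2), with a median of 0.14. Tlr2, the receptor for bacterial lipopeptides, lay at 1921, 2787 and 2322 CPM after LPS and 384, 104 and 390.2 CPM after PBS and was called higher without PBS mouse 175 (log2 fold change 2.60, edgeR adjusted p = 0.00722 without PBS mouse 175, up to 0.297 with another mouse left out). Cd14, the LPS-binding co-receptor, lay at 3284, 2448 and 2059 CPM after LPS and 718, 1499 and 725 CPM after PBS and was called higher in that fit (log2 fold change 1.85, edgeR adjusted p = 0.027 without PBS mouse 175, up to 0.457 with another mouse left out). Neither overlapped between groups, although Cd14 was highest among PBS mice, and Tlr2 lowest, in mouse 175. Cd180, a Toll-like receptor homologue that restrains LPS signalling in some cells, lay at 7.64, 19.8 and 19.9 CPM after LPS and 125, 52.4 and 93.5 CPM after PBS and was called lower in that fit (log2 fold change -2.79, edgeR adjusted p = 0.027 without PBS mouse 175, up to 0.404 with another mouse left out). Tlr4, the LPS receptor itself, varied more within groups than between them, with 14.1, 111 and 153 CPM after LPS and 217, 3.19 and 304 CPM after PBS (log2 fold change -0.91, edgeR adjusted p = 0.855). Ly96, which encodes MD-2, lay at 12.1, 25 and 19.2 CPM after LPS and 55.1, 100.1 and 49.9 CPM after PBS (log2 fold change -1.86, edgeR adjusted p = 0.145). Over both lists 3 calls became 0, 0 and 1 without LPS mice 1, 5 and 7, and 1, 9 and 1 without PBS mice 174, 175 and 177.

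Inhibitors and feedback regulators of NF-κB and cytokine signalling included higher calls. Nfkbia, which encodes the inhibitor IκBα and is itself a target of NF-κB, lay at 1988, 1091 and 875 CPM after LPS and 154, 161 and 238 CPM after PBS (log2 fold change 2.84 with an SE of 0.436, edgeR adjusted p = 0.0378). Ikbke, a kinase of the same pathway, was at 0 after PBS and lay at 55.5, 59.1 and 72 CPM after LPS and 0, 0 and 0 CPM after PBS, higher by at least 185-fold (edgeR, adjusted p = 0.0154). Groups did not overlap for either. Socs2 and Dusp2 encode an inhibitor of cytokine receptors and a MAP kinase phosphatase. Socs2 lay at 16.1, 22.4 and 17.1 CPM after LPS and 0.0953, 0.128 and 0 CPM after PBS, higher by at least 55.2-fold (edgeR, adjusted p = 0.0419). Dusp2 lay at 26.4, 27.7 and 17 CPM after LPS and 0, 0.128 and 0 CPM after PBS, higher by at least 70.6-fold (edgeR, adjusted p = 0.0402). With Tsc22d3, given below, these were the calls among 19 NF-κB genes (2 higher, median 1.29) and 18 negative feedback regulators (3 higher, median 2.02), against 0.662% of all genes. These counts became 6 and 5 without PBS mouse 175 (1.98% of all genes), adding the nuclear IκB protein Nfkbiz (log2 fold change 3.56, edgeR adjusted p = 0.00572 without PBS mouse 175, up to 0.294 with another mouse left out), the ubiquitin-editing inhibitor Tnfaip3 (log2 fold change 1.91, edgeR adjusted p = 0.0346 without PBS mouse 175, up to 0.404 with another mouse left out) and the cytokine signalling inhibitor Socs3 (log2 fold change 3.65, edgeR adjusted p = 0.0118 without PBS mouse 175, up to 0.39 with another mouse left out). Bcl3 and Map3k8 were also added. Among 15 immediate early genes Klf4 was called higher, against 0.662% of all genes, and Ier3 and Socs3 were added without that mouse (1.98%). Over the 3 lists 6 calls became 0, 0 and 0 without LPS mice 1, 5 and 7, and 1, 13 and 1 without PBS mice 174, 175 and 177.

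Genes known to respond to glucocorticoids included several higher calls. Of 14 tested, 7 were called higher, against 0.662% of all genes, with a median log2 fold change of 2.68. Fkbp5, a chaperone of the glucocorticoid receptor, lay at 645, 759.6 and 886 CPM after LPS and 165, 112 and 123 CPM after PBS (log2 fold change 2.52 with an SE of 0.335, edgeR adjusted p = 0.0244). Tsc22d3, which encodes the glucocorticoid-induced leucine zipper, lay at 1010, 824 and 817 CPM after LPS and 187, 249 and 235 CPM after PBS (log2 fold change 1.98 with an SE of 0.309, edgeR adjusted p = 0.0382). PBS mouse 175 lay near the other PBS mice for both. Tsc22d3 was not called with the GC and length correction (log2 fold change 1.63, edgeR adjusted p = 0.0634), under which 6 of the 14 were (1.5% of all genes). Ddit4, an inhibitor of mTORC1, lay at 176, 98.3 and 155 CPM after LPS and 5.34, 2.93 and 5.65 CPM after PBS (log2 fold change 4.94 with an SE of 0.525, edgeR adjusted p = 0.0111). Zbtb16, a zinc finger transcription factor, was at 0 after PBS and lay at 45.5, 142 and 152 CPM after LPS and 0, 0 and 0 CPM after PBS, higher by at least 337-fold (edgeR, adjusted p = 0.0203). Cdkn1a, the cyclin-dependent kinase inhibitor p21, lay at 136, 102 and 97.9 CPM after LPS and 11.7, 17.3 and 6.11 CPM after PBS (log2 fold change 3.25 with an SE of 0.534, edgeR adjusted p = 0.0414). Nfkbia and Il1r2, described above, completed the 7. Klf9 (log2 fold change 4.12, edgeR adjusted p = 0.00739 without PBS mouse 175, up to 0.406 with another mouse left out) and Sult1a1, a sulfotransferase (log2 fold change 1.97, edgeR adjusted p = 0.041 without PBS mouse 175, up to 0.372 with another mouse left out), were added without PBS mouse 175. The 7 calls became 0, 0 and 1 without LPS mice 1, 5 and 7, and 1, 9 and 1 without PBS mice 174, 175 and 177. Several of these genes also respond to LPS or stress directly.

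Calls among secreted acute phase, complement and metal handling genes were mostly higher. Saa3, the serum amyloid A gene expressed by macrophages, lay at 5328, 2511 and 1594 CPM after LPS and 6.86, 21.3 and 6.56 CPM after PBS (log2 fold change 8.09 with an SE of 0.849, edgeR adjusted p = 0.011). It was highest in LPS mouse 1, and among PBS mice in mouse 175, without overlap. Without PBS mouse 175 its log2 fold change was 8.87. Saa genes are similar to one another and can share reads. C3, the central complement component, lay at 22.2, 16.5 and 21.8 CPM after LPS and 0.0953, 0 and 0 CPM after PBS, higher by at least 60.1-fold (edgeR, adjusted p = 0.0402). With Lcn2 and Cp these were the 4 calls among 10 acute phase and antimicrobial genes (median 7.75, or 4.14 with genes at the PBS floor set to their bound), against 0.662% of all genes. C5ar1, the receptor for the complement fragment C5a, lay at 2006, 2017 and 2097 CPM after LPS and 303, 546 and 421 CPM after PBS (log2 fold change 2.27 with an SE of 0.344, edgeR adjusted p = 0.0367). Fcgr4, an activating Fc receptor, lay at 649.7, 358 and 299.7 CPM after LPS and 41.6, 36.7 and 31.9 CPM after PBS (log2 fold change 3.57 with an SE of 0.431, edgeR adjusted p = 0.0176). Both were higher in every LPS mouse than in every PBS mouse, and with C3 they were the 3 calls among 17 complement and Fc receptor genes (median 0.26), against the same 0.662%.

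Slc39a14, a zinc and iron importer, lay at 236, 342 and 364 CPM after LPS and 36.4, 50.1 and 27.9 CPM after PBS (log2 fold change 3.04 with an SE of 0.4, edgeR adjusted p = 0.0239). It was the 1 higher call among 8 metallothionein and zinc transporter genes (median 1.17), against 0.662% of all genes. The metal-binding metallothioneins Mt1 (log2 fold change 2.00, edgeR adjusted p = 0.0425 without PBS mouse 175, up to 0.347 with another mouse left out) and Mt2 (log2 fold change 5.37, edgeR adjusted p = 0.0101 without PBS mouse 175, up to 0.404 with another mouse left out) were called higher without PBS mouse 175. Among 11 iron and heme genes Lcn2 and Cp were higher (median 0.99), against 0.662% of all genes. Iron uptake, storage and export genes were called in addition without that mouse. Tfrc, the transferrin receptor, was higher (log2 fold change 2.12, edgeR adjusted p = 0.0428 without PBS mouse 175, up to 0.554 with another mouse left out), as was Fth1, the ferritin heavy chain (log2 fold change 1.68, edgeR adjusted p = 0.0433 without PBS mouse 175, up to 0.471 with another mouse left out). Slc40a1, the iron exporter ferroportin, was lower, with 29, 48.9 and 73.3 CPM after LPS and 389.6, 132 and 522 CPM after PBS (log2 fold change -3.18, edgeR adjusted p = 0.0101 without PBS mouse 175, up to 0.404 with another mouse left out). Acod1, which makes the antimicrobial metabolite itaconate, lay at 97.7, 130.3 and 92.7 CPM after LPS and 0.477, 0 and 0 CPM after PBS (log2 fold change 9.16 with an SE of 1.18, edgeR adjusted p = 0.0231). It was the 1 higher call among 6 genes of itaconate, nitric oxide and arginine metabolism (median 1.17), against 0.662% of all genes. Over the 5 lists of acute phase, complement, metal and itaconate genes 8 calls became 0, 0 and 3 without LPS mice 1, 5 and 7, and 3, 14 and 2 without PBS mice 174, 175 and 177.

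Interferon-stimulated genes had mostly positive fold changes, few of which passed. Of 34 tested, 33 had a positive log2 fold change (median 1.13), as had 51.3% of all genes, and 19 were higher without overlap, against 13.9% of all genes, but edgeR called 0 (8 at an unadjusted p under 0.05 and 5 called by DESeq2). The fit without PBS mouse 175 called 3 higher, against 1.98% of all genes. Ifitm3, which blocks viral entry, lay at 278, 195 and 147 CPM after LPS and 20.7, 65.2 and 32 CPM after PBS (log2 fold change 2.97, edgeR adjusted p = 0.015 without PBS mouse 175, up to 0.386 with another mouse left out). Ifi204, a nucleic acid sensor of the interferon-inducible p200 family, lay at 114, 249 and 275 CPM after LPS and 24.3, 8.54 and 27.6 CPM after PBS (log2 fold change 3.03, edgeR adjusted p = 0.0179 without PBS mouse 175, up to 0.284 with another mouse left out). Zbp1, a sensor of Z-form nucleic acids, lay at 46.3, 37.2 and 39.8 CPM after LPS and 7.05, 0.128 and 7.46 CPM after PBS (log2 fold change 2.50, edgeR adjusted p = 0.0407 without PBS mouse 175, up to 0.67 with another mouse left out). PBS mouse 175 was the highest PBS library for Ifitm3 and the lowest for Ifi204 and Zbp1. Isg15, a ubiquitin-like protein, lay at 22.1, 17 and 14.7 CPM after LPS and 11.7, 9.56 and 4.86 CPM after PBS (log2 fold change 1.04, edgeR adjusted p = 0.643). Cxcl10, an interferon-induced chemokine, lay at 59.2, 80.2 and 33.6 CPM after LPS and 10.3, 0 and 12.9 CPM after PBS (log2 fold change 2.90, edgeR adjusted p = 0.426). Ifit3, an RNA-binding antiviral protein, went the other way with 14.6, 21.1 and 11 CPM after LPS and 40.3, 19.5 and 29.9 CPM after PBS (log2 fold change -0.94, edgeR adjusted p = 0.61).

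Among guanylate-binding proteins and related GTPases edgeR called 0 of 10 (0 at an unadjusted p under 0.05 and 0 called by DESeq2), with a median of 0.81. Among MHC class I genes it called 0 of 19 (3 at an unadjusted p under 0.05 and 0 called by DESeq2), with a median of 0.22 (-0.17 with the GC and length correction and without PBS mouse 175), and among MHC class II genes 0 of 11 (4 at an unadjusted p under 0.05 and 3 called by DESeq2), with a median of -0.95. Without PBS mouse 175, Cd74, the invariant chain of MHC class II, was called higher with 579, 310.1 and 251 CPM after LPS and 60.3, 149 and 47.6 CPM after PBS (log2 fold change 2.81, edgeR adjusted p = 0.0215 without PBS mouse 175, up to 0.404 with another mouse left out). H2-Ob, which restrains peptide loading, was called lower with 14.9, 13.8 and 14.7 CPM after LPS and 83.6, 129 and 45.1 CPM after PBS (log2 fold change -2.15, edgeR adjusted p = 0.0461 without PBS mouse 175, up to 0.404 with another mouse left out). Neither overlapped between groups, and PBS mouse 175 was the highest PBS library for both. Over the 4 lists of interferon and MHC genes 0 calls became 0, 0 and 0 without LPS mice 1, 5 and 7, and 0, 5 and 0 without PBS mice 174, 175 and 177.

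Endolysosomal genes were among the lower calls. Besides Slc46a3, the sodium-proton exchanger Slc9a9 lay at 33.2, 58.7 and 42.2 CPM after LPS and 386, 194 and 321 CPM after PBS (log2 fold change -2.75 with an SE of 0.428, edgeR adjusted p = 0.0382). Slc37a2, a sugar phosphate transporter of macrophages, lay at 69.5, 63.2 and 39.1 CPM after LPS and 263, 238 and 322 CPM after PBS (log2 fold change -2.26 with an SE of 0.376, edgeR adjusted p = 0.042). They were the 3 lower calls among 18 endolysosomal solute carriers (median -0.51), against 0.423% of all genes, and Slc29a3, a nucleoside transporter, was added without PBS mouse 175 (log2 fold change -1.78, edgeR adjusted p = 0.0313 without PBS mouse 175, up to 0.404 with another mouse left out). Among 39 lysosomal hydrolases and membrane proteins edgeR called 0 (19 at an unadjusted p under 0.05 and 11 called by DESeq2), with a median of -0.63. The saposin precursor Psap (log2 fold change -1.52, edgeR adjusted p = 0.0472 without PBS mouse 175, up to 0.417 with another mouse left out) and the protease Lgmn (log2 fold change -1.59, edgeR adjusted p = 0.0298 without PBS mouse 175, up to 0.405 with another mouse left out) were among those called lower without PBS mouse 175. In that library Psap and Lgmn were higher than in any other. Ctsd, the protease cathepsin D, lay at 10311, 4678 and 4332 CPM after LPS and 17110, 30719 and 16168 CPM after PBS and did not pass (log2 fold change -1.73, edgeR adjusted p = 0.152).

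Phagocytosis and scavenger receptors changed in both directions. Msr1, the class A scavenger receptor, lay at 402, 1134 and 1086 CPM after LPS and 7.62, 1.27 and 0.339 CPM after PBS (log2 fold change 8.12 with an SE of 1.24, edgeR adjusted p = 0.0376), with LPS mouse 1 under the other LPS mice and no overlap. Cd300a, an inhibitory receptor for phosphatidylserine, lay at 78.3, 62.9 and 44.8 CPM after LPS and 309.6, 486 and 265 CPM after PBS (log2 fold change -2.51 with an SE of 0.409, edgeR adjusted p = 0.0414). With Marco, 2 of 19 were called higher and 1 lower (median -0.22), against 0.662% and 0.423% of all genes. The log2 fold change of Msr1 was 7.27 with the GC and length correction, under which Cd300a was not called (edgeR adjusted p = 0.0539). Cd300lf, a related receptor of the same family, lay at 342, 720.2 and 745 CPM after LPS and 0.0953, 0 and 4.07 CPM after PBS and was called higher without PBS mouse 175 (log2 fold change 8.20, edgeR adjusted p = 0.0132 without PBS mouse 175, up to 0.243 with another mouse left out), as were the lectins Clec4d and Clec4e. Of 22 genes of disease-associated MG, Spp1 was higher and no other was called (median -0.32), against 0.662% of all genes. Cd9, a tetraspanin (log2 fold change -1.64, edgeR adjusted p = 0.0275 without PBS mouse 175, up to 0.404 with another mouse left out), and Axl, a receptor for dying cells (log2 fold change -1.95, edgeR adjusted p = 0.0472 without PBS mouse 175, up to 1 with another mouse left out), were called lower without PBS mouse 175. Axl lay at 62.6, 30.1 and 46.2 CPM after LPS and 145, 11.3 and 213 CPM after PBS, so that PBS mouse 175 was under every LPS mouse. Apoe, an apolipoprotein, lay at 636, 260.4 and 174 CPM after LPS and 516, 619 and 301 CPM after PBS (log2 fold change -0.42, edgeR adjusted p = 0.838), and its groups overlapped. Over the 4 lists of lysosomal, phagocytosis and disease-associated genes 7 calls became 0, 1 and 2 without LPS mice 1, 5 and 7, and 4, 16 and 4 without PBS mice 174, 175 and 177.

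Migration genes included 2 higher calls of 15 (median 1.63), against 0.662% of all genes. Plaur, the urokinase receptor, lay at 206, 176 and 172 CPM after LPS and 19.5, 31.9 and 26.5 CPM after PBS (log2 fold change 2.83 with an SE of 0.383, edgeR adjusted p = 0.0264). Itga5, the fibronectin receptor subunit α5, lay at 208, 234 and 258 CPM after LPS and 24.3, 40.3 and 47.8 CPM after PBS (log2 fold change 2.64 with an SE of 0.397, edgeR adjusted p = 0.0367). Neither overlapped between groups, and Plaur was not called in the fit of all 18 reporter libraries (edgeR adjusted p = 0.0511). Among 19 glycolysis and HIF-1 genes edgeR called 0 (4 at an unadjusted p under 0.05 and 4 called by DESeq2), with a median of 0.66, and Pfkfb3, which makes an activator of glycolysis, was called higher without PBS mouse 175 (log2 fold change 2.74, edgeR adjusted p = 0.0132 without PBS mouse 175, up to 0.345 with another mouse left out). Cytosolic ribosomal proteins had 80 of 82 fold changes above 0, as had 51.3% of all genes, and edgeR called 0 (17 at an unadjusted p under 0.05 and 6 called by DESeq2). The groups did not overlap for 26 of the 82, all higher after LPS, against 13.9% of all genes. The median was 0.85, and 0.49 with the GC and length correction. The short transcripts of ribosomal proteins have many pseudogenes, with which reads can be shared. Respiratory chain subunits gave 0 calls of 80 by edgeR (1 at an unadjusted p under 0.05 and 1 called by DESeq2), with a median of 0.21 that turned to -0.25 with the GC and length correction. Among 17 cell cycle genes edgeR called 0 (1 at an unadjusted p under 0.05 and 0 called by DESeq2), with a median of 0.28, and Mki67, a marker of dividing cells, was at 0 in all 6 libraries. Mcm2, a replication helicase subunit, was called without PBS mouse 175, although with it the levels were 8.6, 18.2 and 12.9 CPM after LPS and 0.286, 36.3 and 0 CPM after PBS (log2 fold change 0.12, edgeR adjusted p = 0.993). Among 10 heat shock chaperones edgeR called 0 (3 at an unadjusted p under 0.05 and 1 called by DESeq2), with a median of 0.78. Over these 6 lists 2 calls became 0, 0 and 0 without LPS mice 1, 5 and 7, and 0, 7 and 1 without PBS mice 174, 175 and 177.

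**Figure D3:**
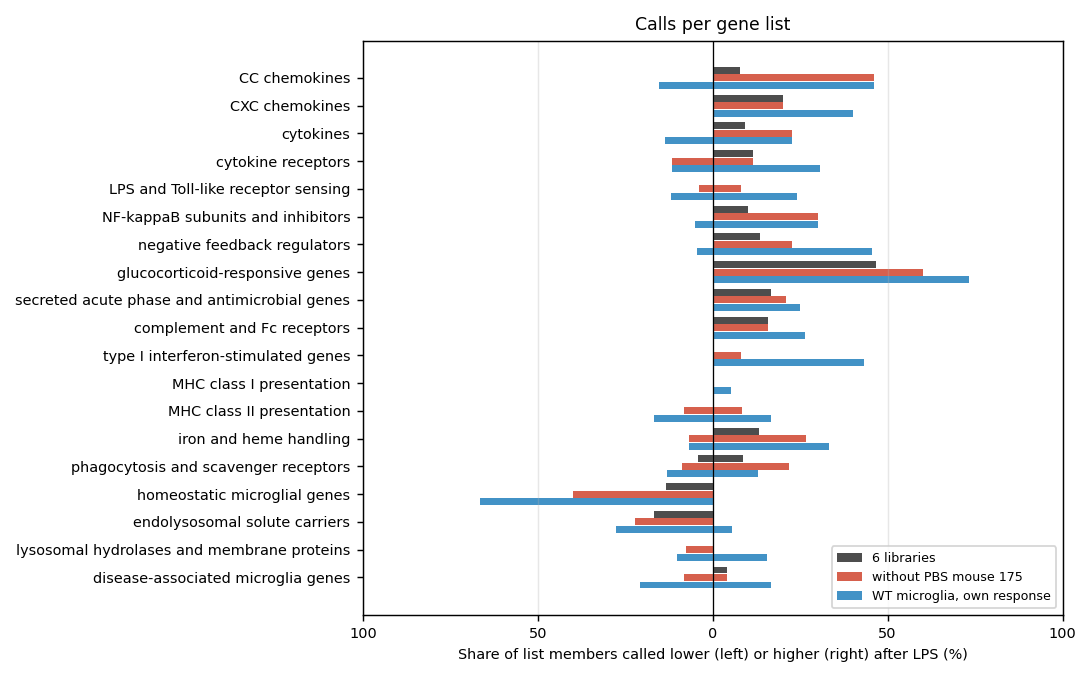
Share of the members of each gene list called higher (right) or lower (left) after LPS (%), in the 6 libraries (grey), without PBS mouse 175 (red) and in WT MG given vehicle and LPS against untreated WT MG given PBS (blue). Homeostatic genes go from 4 lower calls to 12 without PBS mouse 175, and glucocorticoid-responsive genes from 7 higher calls to 9.

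The response was then set beside that of MG that were never depleted, from wild type (WT) and Ccr2 KO mice given vehicle and LPS or left untreated and given PBS, 3 mice a group. Those mice differed from the reporter mice in genotype, depletion, tamoxifen and batch label (1 instead of 2) at once, so that these cannot be told apart. Both reporter groups had received BLZ945, whereas in WT and Ccr2 KO mice vehicle was given with LPS and not with PBS. Vehicle and LPS therefore cannot be told apart in the response of WT and Ccr2 KO MG, and this does not cancel in the interactions below. The response of WT and Ccr2 KO MG was fitted without any reporter library. WT MG had 974 higher calls among 11380 genes (8.56%) and 874 lower calls (7.68%), and Ccr2 KO MG 1193 among 11193 (10.7%) and 1151 (10.3%). All 118 genes called in reporter MG were tested there and had the same direction in WT MG, where 113 were called in that direction, and 117 were in Ccr2 KO MG. Of the 403 genes called without PBS mouse 175, 397 were tested in WT MG and 340 were called there in the same direction, and of 401 tested in Ccr2 KO MG 358 were. Homeostatic genes gave 20 lower calls in WT MG and 22 in Ccr2 KO MG, glucocorticoid-responsive genes 11 higher calls in each, interferon-stimulated genes 16 and 29 higher calls, and cytosolic ribosomal proteins 36 and 35. P2ry12 had log2 fold changes of -3.23 in WT and -3.29 in Ccr2 KO MG, against -3.04 in reporter MG and -3.56 without PBS mouse 175.

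**Figure D4:**
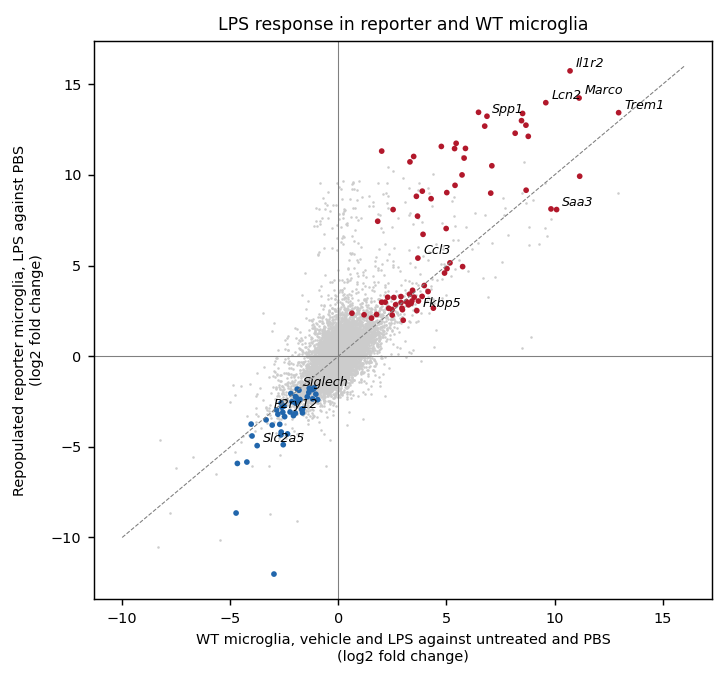
Log2 fold change after LPS in repopulated reporter MG (vertical) against WT MG given vehicle and LPS or untreated and given PBS (horizontal), 1 point per gene tested in both. Red and blue points are genes called higher and lower in reporter MG, the dashed line marks equal values, and all coloured points lie on the same side of 0 on both axes. Fitted values of genes at 0 in PBS libraries, such as Il1r2 and Marco, are not bounds.

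Whether the response differed was tested with an interaction term over 12 MG libraries for each comparator. Against WT MG, 24 of 11996 genes had a positive interaction, meaning a higher log2 fold change in reporter MG (0.2%), and 1 a negative one (0.00834%). Spp1 lay at 956, 1130 and 677 CPM after LPS and 0.199, 0 and 0 CPM after PBS in reporter MG, and 611, 239 and 342 and 3.89, 1.76 and 4.52 CPM in WT MG, with an interaction of 6.50 (SE 0.931, edgeR adjusted p = 0.0303). WT MG held a low level of Spp1 at rest that PBS reporter MG did not show. Adamtsl4 lay at 231, 127 and 164 CPM after LPS and 0, 0 and 0 CPM after PBS in reporter MG, and 177, 195 and 194 and 2.47, 2.63 and 1.32 CPM in WT MG (interaction 7.10, SE 0.854, edgeR adjusted p = 0.0303). Irf4, a transcription factor of the interferon regulatory family, lay at 13.6, 10.3 and 10.8 CPM after LPS and 0, 0 and 0 CPM after PBS in reporter MG, and 3.72, 3.3 and 3.47 and 5.45, 9.53 and 4.19 CPM in WT MG (interaction 10.52, SE 1.24, edgeR adjusted p = 0.0303). For Adamtsl4 the groups overlapped after LPS and not after PBS. Zfp446 and Dsn1, also called, were likewise at 0 in all 3 PBS reporter libraries, so that these fitted interactions depend on the prior count and are not bounds. Wscd1 was the gene with the negative interaction and fell further in reporter MG than in WT MG. It lay at 0, 0 and 0 CPM after LPS and 24.5, 112 and 30.9 CPM after PBS in reporter MG, and 1.31, 2.97 and 3.37 and 24.7, 20.4 and 15.9 CPM in WT MG (interaction -8.93, SE 1.41, edgeR adjusted p = 0.0448). P2ry12 did not pass this test (interaction 0.28, SE 0.959, edgeR adjusted p = 1). Calls numbered 0 without any 1 of the 6 WT mice or LPS mice 5 or 7 (684 to 814 genes at an unadjusted p under 0.05), 34 without LPS mouse 1, and 133, 60 and 173 without PBS mice 174, 175 and 177. DESeq2 called 199.

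Against Ccr2 KO MG, Spp1 alone of 11907 genes was called (0.0084%). Its levels in this fit were 829, 1020 and 625 CPM after LPS and 0.191, 0 and 0 CPM after PBS in reporter MG, and 874, 773 and 616 and 5.24, 3.56 and 4.45 CPM in Ccr2 KO MG, with an interaction of 5.82 (SE 0.698, edgeR adjusted p = 0.0346). After LPS the Spp1 levels of reporter and Ccr2 KO MG overlapped, and after PBS they did not. Calls numbered 0 without any 1 of the 6 Ccr2 KO mice or LPS mice 5 or 7 (791 to 892 genes at an unadjusted p under 0.05), 85 without LPS mouse 1, and 111, 43 and 144 without PBS mice 174, 175 and 177. DESeq2 called 255 genes.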

How the data were processed

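MG were sorted by FACS, cDNA was amplified with a SMARTer kit for minute RNA inputs, and Nextera XT libraries were read as 50-cycle single reads on an Illumina HiSeq instrument. The submitters' processing notes name bcl2fastq 2.20, STAR 2.7.11a, featureCounts 2.0.8 and DESeq2 1.46.0. The authors deposited unnormalized counts for each gene symbol as 3 tables with 18 columns apiece, of which 0 could not be matched to a library. For Ccr2 KO mice given LPS the sample titles exchange MG and sdCAMs relative to the library names, and the library names were followed. Some reporter sdCAM columns differ from their library names in the index number and entered only the fit of all 18 reporter libraries. The build was named ambiguously, so only RefSeq coordinates (GRCm38.p6) are given. Strand and duplicate handling are not given in the sources used here, antisense and overlapping genes are therefore uncertain, and no molecular identifiers were used, so that floors cover counting error only. Library totals, whose range is given above, and their TMM factors set the level in CPM of a floor of 3 counts.

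Counts were fitted with edgeR 4.0.16 in R 4.3.3 (filterByExpr, TMM, quasi-likelihood, two-sided, Benjamini-Hochberg over all genes tested). Where no library of a group exceeded 3 counts, folds were computed from that floor, averaged over its libraries, and given as lower bounds. The 24 genes named by rule had the smallest p among calls with at least 10 CPM in the higher group and no overlap, without predicted genes, and further genes were members of gene lists. The members, lists and tests were chosen with earlier results of these data known. P-values measure the spread between mice. The main edgeR comparison of LPS with PBS mice was tested on simulated counts, which held no library set apart like that of PBS mouse 175 and no GC trend. The other fits were not simulated. Alternatives were DESeq2 1.42.0, limma 3.58.1 with voom and quality weights, other filters and scalings, robust dispersions, a fit of all 18 reporter libraries and each mouse left out. Added after seeing the data were the correction for GC content and length, from the longest GENCODE transcript of 10506 of the 10882 genes, and the omission of mice 1 and 175 together. The sdCAM libraries were not used here otherwise.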

Additional observations from a re-analysis of the deposited data

Results flagged for a closer look

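These 7 results stood out because the LPS response of reporter MG differed from that of a never-depleted group by the tested interaction. Against WT MG, Irf4 had a difference of 10.52 (log2, reporter minus WT), Adamtsl4 7.10, Zfp446 9.60, Spp1 6.50 and Dsn1 8.97. Wscd1 had -8.93. Against Ccr2 KO MG, Spp1 had 5.82. Zfp446, a zinc finger gene, lay at 22.1, 5.5 and 10.3 CPM after LPS and 0, 0 and 0 CPM after PBS in reporter MG, and 15.3, 16.1 and 14.6 and 12.9, 14 and 13.6 CPM in WT MG. Dsn1, a kinetochore component, lay at 5.91, 12.7 and 14.5 CPM after LPS and 0, 0 and 0 CPM after PBS in reporter MG, and 13.7, 8.69 and 13.8 and 7.66, 8.53 and 7.39 CPM in WT MG. For both genes and for Irf4, the WT levels after PBS were above 0 in all 3 mice, while those of the reporter mice were 0. Each of the 6 differences from WT was called in 3 or 4 of the 12 fits that left out 1 mouse, and that of Spp1 from Ccr2 KO in 4 of 12. The fitted sizes are no bounds where a group held no counts.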

How the results depend on the processing

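No paired analysis was possible because LPS and PBS were given to different mice whose numbers are not shared between the groups. The 118 calls became 854 with DESeq2, 1475 with voom and quality weights, 268 with no filter on low counts, 575 in the fit of all 18 reporter libraries (where 6 of 58 named calls were lost, Siglech, Sall1, Olfml3, Upk1b, Adgrg1 and Plaur), 389 with the GC and length correction (157 higher and 232 lower instead of 72 and 46), 957 with that correction and without PBS mouse 175, and 1250 without LPS mouse 1 and PBS mouse 175 together. They ranged from 0 to 403 when each mouse was left out, and 111 to 121 were called with robust dispersions, other size factors, the study's rule on low counts, a minimum mean of 10 counts, removal of the gene classes the study removed, removal of sex-linked genes or no limit on the fold change. The median log2 fold change of all genes, 0.03, moved to 0.32 with no filter, 0.29 with the study's low-count rule, 0.16 with voom, 0.11 without the gene classes and -0.20 with the correction.

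The difference from WT MG (25 calls) gave 199 with DESeq2, 0 with voom, 46 with BLZ945+LPS mice as comparator and 0 to 173 with each mouse left out. That from Ccr2 KO MG (1 call) gave 255, 194 and 0 in the same order, 19 with no filter, 31 with the correction and 0 to 144. Among the named genes 2 turned direction. Ccl22, at -0.13, was -0.71 without PBS mouse 174, 0.02 without LPS mouse 7, 8.97 without PBS mouse 175, 6.27 with voom, 0.089 with no filter and with the study's rule, 0.10 without the gene classes, 8.91 with the correction and without PBS mouse 175, and 8.73 without LPS mouse 1 and PBS mouse 175. Mcm2, at 0.12, was 6.35 without PBS mouse 175 and -0.18, -0.46 and -0.47 without LPS mouse 5, PBS mouse 174 and PBS mouse 177. The causes were not tested. Depth limits the genes at or under 3 counts per library, 31 of the 72 higher calls after PBS and 1 of the 46 lower calls after LPS.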

Other observations

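Markers of other cells differed between libraries, and their part in the results was not tested. Those of oligodendrocytes were lower in every LPS mouse than in every PBS mouse, while the ranges of astrocyte and erythroid markers overlapped. Oligodendrocyte markers summed to 90.4 to 186 CPM after LPS and 207 to 431 CPM after PBS, with Cnp at 286 CPM in PBS mouse 175. Astrocyte markers summed to 217 to 385 and 304 to 411 CPM, nearly all of it Slc1a3, and erythroid markers to 22.7 to 57.3 and 0 to 25.6 CPM. F13a1 lay at 12.4 and 16.1 CPM in LPS mice 5 and 7 and at 0 in LPS mouse 1, while Cd163 lay at 4.54 CPM in LPS mouse 1 and 0 in LPS mice 5 and 7.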
